A study of Mus musculus with 18 samples.

Results

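Organoids grown from reprogrammed fibroblasts were compared with organoids grown from intestine, over 2 stages at once, to find the genes that separate the origins whichever stage is looked at. The comparison used 12 of the 18 one-colour microarrays of the series, 6 of induced and 6 of native organoids, in 4 groups of 3 arrays. The adult-type stage consisted of budding organoids (BOs), grown either from iISCs, the induced intestinal stem cells (iISC organoids), or out of crypts of adult intestine (crypt organoids). At the fetal-type stage, cultures of spherical organoids (SOs) together with BOs came from induced fetal intestinal progenitor cells (iFIPC organoids) or from fetal intestinal progenitor cells of fetal intestine (FI organoids). All mice were C57BL/6, and the labels give neither the age of the donors nor the transgenes used for conversion. The other 6 arrays held mouse embryonic fibroblasts (MEFs), the cell type from which such conversions start, and induced hepatocyte-like cells made from MEFs (iHep cells); they served only to show where the genes of the signature stood in fibroblasts, and no label says that these were the MEFs that were converted.

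A converted cell takes up the gene programme of its new type by the action of the introduced transcription factors, while genes that record where in the body a cell came from can be passed on through many divisions. Hox genes are the best known of these: they lie in 4 clusters, are used in order along the body axis, and stay on in cultured fibroblasts according to the site from which the fibroblasts were taken. The epithelium of the small intestine carries a positional code of its own, in which GATA4 and ONECUT2 belong to the duodenum and jejunum, and bile acid uptake belongs to the ileum.

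Each level below is the log2 of the processed signal minus the 75th percentile of its array, so that 0 stands for a bright probe. A level can be compared between arrays but not between genes. The difference by origin is the mean of the iISC minus crypt and the iFIPC minus FI differences, from limma with origin and stage as terms. To be called, a gene had to differ by at least 1 in size with a limma p, adjusted by Benjamini-Hochberg, below 0.05, and it was counted as shared when both stages differed the same way by at least 1 as well. Signals that the scanner software marked as well above background are called above background.

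All 5 epithelial markers examined (Cdh1, Epcam, Vil1, Cdh17 and Lgals4) were above background on all 12 organoid arrays, and the log2 of their summed signal lay at 8.84 to 8.96 in iISC, 8.89 to 8.97 in crypt, 8.76 to 8.88 in iFIPC and 8.54 to 8.83 in FI organoids. Of 8 defining fibroblast markers (Col1a1, Col1a2, Col3a1, Pdgfra, Thy1, Twist1, Dcn and Lum), 1 to 3 were above background on iISC arrays, 1 on crypt arrays, 5 to 8 on iFIPC arrays and 1 to 4 on FI arrays. The log2 of their summed signal lay at -3.52 to -2.62 in iISC, -4.00 to -3.48 in crypt, -0.93 to 1.99 in iFIPC and -3.65 to 0.07 in FI organoids, against 9.62 to 9.74 in MEFs. Fewer cells of a type and less RNA per cell cannot be told apart in such bulk samples. The array FI 1 stood closest to the induced arrays: among FI arrays it was the highest in 62.9% of the genes that were higher by origin at both stages, and in 31.3% of all genes tested. The arrays of every organoid group differed in Xist and in Y-linked genes. Crypt 2 and crypt 3, which share a slide, were the closest pair of organoid arrays, with a spread of log2 differences of 0.288 over probes, where the other 11 pairs within groups had 0.495 to 0.688.

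Of 14522 genes tested, 810 (5.58%) were called by origin. In induced organoids 551 (3.79%) were higher and 259 (1.78%) lower than in native ones. Of the 810, 543 (3.74% of the genes tested) were shared by both stages, 385 higher (2.65%) and 158 lower (1.09%), and none of the remaining 267 differed in opposite directions at the 2 stages. A shared gene did not have to be above background at both stages. Bdnf, Has2, Il1a and Fn1, for example, were shared while above background on no iISC and no crypt array. Their adult-type differences lie between values at background. The median difference of the shared genes was 2.48 for those higher (2.24 with 53 genes that were above background on no native array set to a lower bound) and -2.15 for those lower (-2.02 with bounds), against -0.05 over all genes tested. Of the 14522, 324 had passed the background filter through induced groups only, and 146 of these were called higher; 747 had passed through native groups only, and 66 of these were called lower. The filter favours a difference in that direction in such genes without requiring one, so nothing is read from these counts. Hoxb4, for example, passed through FI arrays only and differed by -0.05. Among the 13451 that passed through both origins 405 were called higher. Under the stricter demand of a call at each stage separately, 136 genes (0.937%) remained, 85 higher (0.585%) and 51 lower (0.351%). All 136 were among the shared genes. The arrays of induced and native organoids did not overlap at either stage for 364 of the 543, and for 170 of them all 6 induced arrays lay on 1 side of all 6 native arrays. Over all genes, 8.81% had arrays apart in the same direction at both stages (4.20% higher, 4.61% lower), and 4.18% had all 6 against 6 apart (1.8% higher, 2.38% lower). Nearest to the size threshold were Tst (smaller stage difference 1.002), Me2 (1.011) and Pf4 (1.014) inside, and Tbc1d31 (0.999), Ckap4 (0.997) and Slc26a6 (0.997) outside it.

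Slide and origin were largely tied to each other in these arrays. Slide 1 held the 3 FI arrays and crypt 1, slide 3 held the 3 iISC arrays and iFIPC 2, and only slide 2 held both origins, iFIPC 1 and 3 with crypt 2 and 3. With slide as a random block 373 genes were called, 304 of them shared. With slide as a fixed term only 37 were called, 36 of them shared, and of the 543 genes 22 kept their call while 540 kept their sign. Of all genes tested 72.8% kept their sign, and the 543 had been chosen for large differences on these same arrays. The median size of the 543 was then 2.59 against 2.30 without the term, and the median standard error was 0.981 against 0.448. Within slide 2, where stage differs along with origin, 381 of the 385 higher genes were higher in iFIPC than in crypt arrays and 157 of the 158 lower genes were lower. These 4 arrays were among those that chose the genes, so the counts are a description and no separate check. Without FI 2 or FI 3 the genes called by origin numbered 466 and 500. Without FI 1 they numbered 747, of which 548 were shared.

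**Figure D1:**
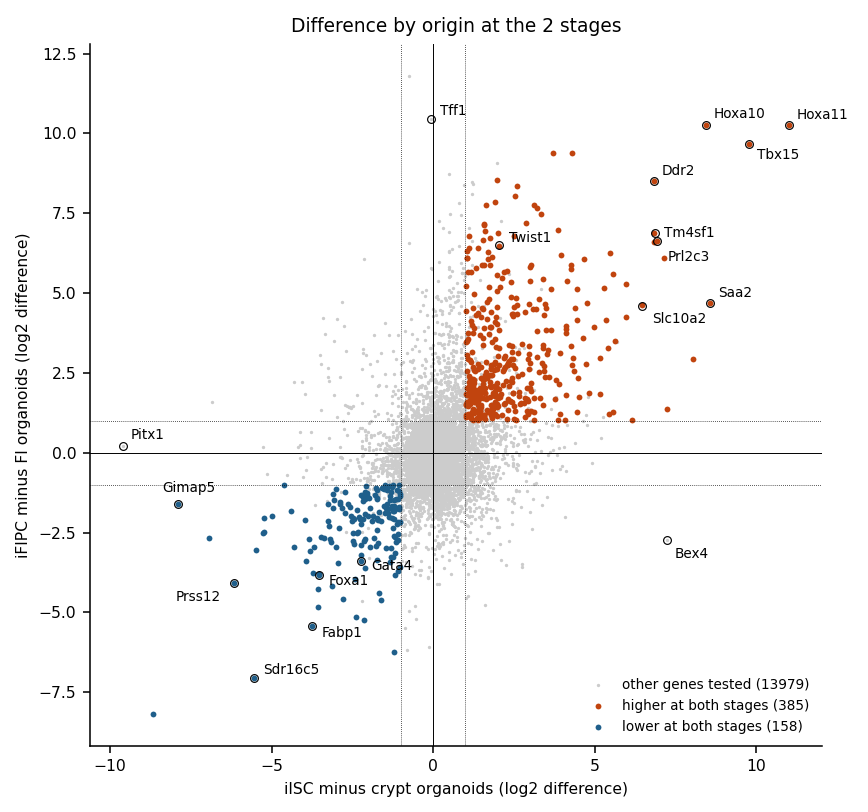
Log2 difference between iISC and crypt organoids (horizontal axis) and between iFIPC and FI organoids (vertical axis) for 14522 genes, each point a gene and each value a difference of means of 3 arrays. The 385 shared higher genes fill the upper right and the 158 shared lower genes the lower left beyond the dotted lines at 1 and -1, with Hoxa11, Hoxa10 and Tbx15 far out at the upper right, Sdr16c5 and Prss12 at the lower left, and Pitx1, Tff1 and Bex4 beside the axes or across them.

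The largest shared differences were those of transcription factors that set position in the embryo. Hoxa11, a Hox gene of the limb and the hind part of the trunk (probe at mm9 chr6:52192107-52192166), stood at 2.49, 1.70 and 2.40 in iISC organoids, against -9.02, -8.57 and -8.85 in crypt organoids. In iFIPC organoids it stood at 3.12, 2.72 and 3.05, against -9.11, -6.09 and -6.68 in FI organoids. All 6 induced arrays were among the bright probes, and 4 of the 6 native arrays were not above background. The difference by origin was 10.63 ± 0.44 (log2, SE, n = 6 arrays each, limma adjusted p = 5.17e-07), and it was at least 453-fold between iISC and crypt organoids. MEFs had 1.98 and iHep cells 1.28 for the same probe.

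Tbx15, a T-box factor of the mesenchyme of trunk and limbs (mm9 chr3:99157901-99157960), was bright in 1 origin and dark in the other. It stood at 1.56, 1.63 and 0.97 in iISC organoids, against -8.82, -8.38 and -7.98 in crypt organoids. In iFIPC organoids it stood at 1.82, 1.01 and 1.5, against -7.68, -7.94 and -9.08 in FI organoids. No native array was above background, the induced organoids were at least 296-fold higher (adjusted p = 1.48e-08), and MEFs stood at 2.29. Hoxa10 (mm9 chr6:52181656-52181715) had 1.90, 1.68 and 1.65 in iISC organoids, against -8.65, -4.64 and -6.81 in crypt organoids. It had 2.57, 2.14 and 2.48 in iFIPC organoids, against -8.78, -8.76 and -6.01 in FI organoids (difference by origin 9.35 ± 0.70, adjusted p = 6.34e-05). In each of these 3 genes every induced array lay above every native one.

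Of the 8 tested genes of Hox groups 9 to 13, 6 were called higher and none lower, where 3.79% of all genes were higher. All 6 were shared. The array holds 15 genes of these groups, and 7 of the 8 tested passed the background filter through induced groups only, so that nothing is read from the share called. The gene that passed through both origins was Hoxa9. It stood at 0.93, 1.13 and 0.79 in iISC organoids, against -2.58, -2.34 and -2.67 in crypt organoids. It stood at 1.59, 1.43 and 1.87 in iFIPC organoids, against -2.72, -2.99 and -2.98 in FI organoids, and the 2 origins were well apart (4.00 ± 0.19, adjusted p = 1.76e-06). Its difference was larger at the fetal-type stage by 1.05 (adjusted p of origin by stage 0.0224). Hoxd9 was at least 9.72-fold and Hoxa13 at least 10.4-fold higher in induced organoids, with no native array above background in either. Hoxd13 rested more on iFIPC organoids: it was above background on 1 of 3 iISC and 3 of 3 iFIPC arrays, against none of the crypt arrays and 1 FI array. The 2 uncalled members were Hoxc9 (2.79, adjusted p = 0.0784) and Hoxb9 (1.13, adjusted p = 0.649). Hoxb9 stood at 0.71 on iISC 2 and below -5 on the other 2 iISC arrays, so that the arrays of 1 group disagreed.

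Of 18 tested Hox genes of groups 1 to 8, only Hoxa7 and Hoxa5 were called, both higher and both shared (11.1% against 3.79% of all genes). Hoxa7 stood at 2.17, 3.41 and 2.67 in iISC organoids, against -3.08, -1.28 and -0.51 in crypt organoids. It stood at 3.12, 2.41 and 2.97 in iFIPC organoids, against -4.37, -0.89 and 0.13 in FI organoids (4.46 ± 0.70, adjusted p = 0.00492). Hoxa7, Hoxa9, Hoxa10, Hoxa11 and Hoxa13 followed one another without a gap among the genes tested, in the order of the RefSeq annotation, and were the longest such run of shared genes. Hoxa6, the gene before them, differed by 0.49 (adjusted p = 0.139), and Hoxa2 and Hoxa4 had adjusted p-values of 0.136 and 0.480. Hoxa3 differed by 0.30 (limma adjusted p = 0.0382), too little to be called, with every induced array above every native one.

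**Figure D2:**
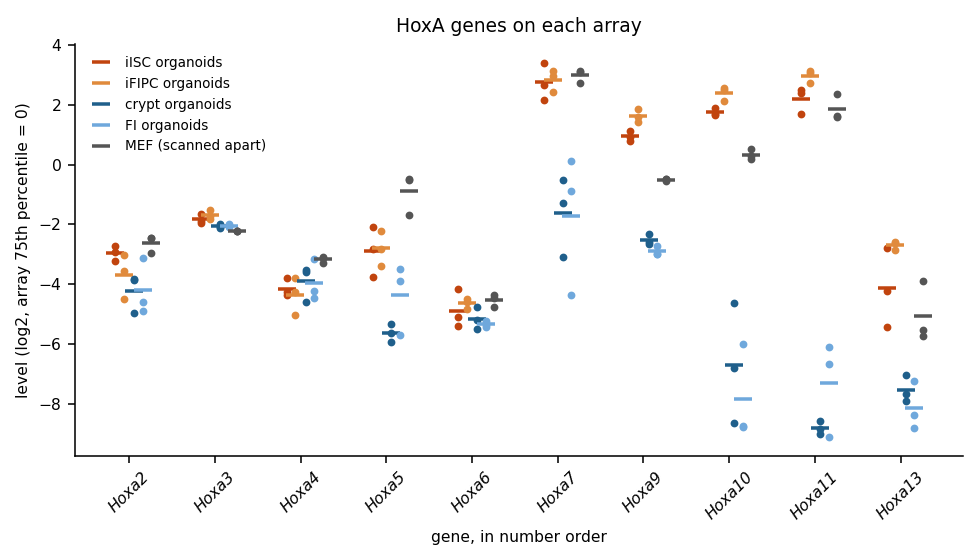
Level of 10 HoxA genes (log2, 75th percentile of the array at 0) on each array, points for arrays and bars for group means; levels are comparable between groups within a gene and not between genes. From Hoxa7 onward the iISC and iFIPC points lie above the crypt and FI points, with the widest gap at Hoxa11 (10.63). At Hoxa4 and Hoxa6 the groups lie together, while Hoxa5, between them, differs by 2.14.

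The start regions of these adjacent genes are shown because the genes moved together. The windows are from RefSeq (GRCm38.p6, minus strand, 250 bases before and 50 after the gene's start), written 5′ to 3′ with CpG pairs in capitals. Hoxa9 (chr6:52227321-52227620) has 4 CpGs, Hoxa10 (chr6:52240805-52241104) 12 and Hoxa11 (chr6:52245761-52246060) 15.
Hoxa9: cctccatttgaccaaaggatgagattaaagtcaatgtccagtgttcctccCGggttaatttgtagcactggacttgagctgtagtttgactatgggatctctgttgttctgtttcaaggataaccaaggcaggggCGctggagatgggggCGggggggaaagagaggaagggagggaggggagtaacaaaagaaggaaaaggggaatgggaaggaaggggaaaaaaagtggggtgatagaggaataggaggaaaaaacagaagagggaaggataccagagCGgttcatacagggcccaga
Hoxa10: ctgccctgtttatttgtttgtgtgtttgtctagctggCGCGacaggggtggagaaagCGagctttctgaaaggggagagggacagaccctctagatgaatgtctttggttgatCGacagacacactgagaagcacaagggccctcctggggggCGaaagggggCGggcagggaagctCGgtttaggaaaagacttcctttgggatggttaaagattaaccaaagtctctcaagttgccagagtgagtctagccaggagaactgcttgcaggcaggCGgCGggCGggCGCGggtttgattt
Hoxa11: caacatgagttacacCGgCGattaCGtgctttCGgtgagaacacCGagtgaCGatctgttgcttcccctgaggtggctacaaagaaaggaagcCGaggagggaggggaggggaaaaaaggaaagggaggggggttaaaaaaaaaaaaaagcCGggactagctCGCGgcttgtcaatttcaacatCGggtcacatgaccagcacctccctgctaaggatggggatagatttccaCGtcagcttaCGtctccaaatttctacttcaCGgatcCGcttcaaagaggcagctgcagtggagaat

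Over all tested genes with such a window, the median was 19 CpGs. It was 12 for the 279 higher genes and 8 for the 134 lower genes that have one, so the shared genes of either direction had start regions poorer in CpG than the genes tested. At least 10 CpGs were found in 56.6% of the higher genes, 46.3% of the lower genes and 76.0% of all. The letters TATAAA, on either strand, were in 13.3% of the higher and 16.4% of the lower windows, against 8.77% of all. TGANTCA, the core read by AP-1 factors (N for any base), was in 10.4% of the higher and 7.46% of the lower windows, against 5.35% of all. GGAATG, the core read by TEAD factors, was in 12.2% of the higher and 11.9% of the lower windows, against 12.1% of all. A match is a description of the letters and not a site.

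Of the 37 regulators of limb and trunk mesenchyme on the array 18 were tested, and 6 of these were called higher and 1 lower. These were shares of 33.3% and 5.56%, against 3.79% and 1.78% of all genes. All 6 had passed the background filter through induced groups only, as had 1 gene that was not called, and of the 8 that passed through both origins none was called higher. Besides Tbx15 the higher ones were Tbx18 (3.92), Hand2 (2.60), Prrx2 (2.41), Foxf2 (at least 4.25-fold) and Tbx5 (at least 1.99-fold). Tbx5 was not shared, and it was above background on the 3 iFIPC arrays and on no other organoid array. Tbx18 overlapped at the adult-type stage: it stood at -8.64, -3.73 and -5.04 in iISC organoids, against -8.96, -6.17 and -8.83 in crypt organoids. Outside the list, Foxc1, a forkhead factor of mesenchyme, stood at -1.82, -1.34 and 0.24 in iISC organoids, against -4.36, -8.64 and -6.63 in crypt organoids. The iFIPC organoids had 1.63, 0.21 and 1.32, against -2.87, -5.40 and -5.35 in FI organoids, with no overlap between origins (5.58 ± 0.72, adjusted p = 0.00216).

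Pitx1, a homeobox gene of the hind limb, was not called by origin (adjusted p = 0.0816): it differed by -9.59 between iISC and crypt organoids and by 0.20 between iFIPC and FI organoids, and this difference between stages passed the test (9.79, adjusted p = 0.0063).

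**Figure D3:**
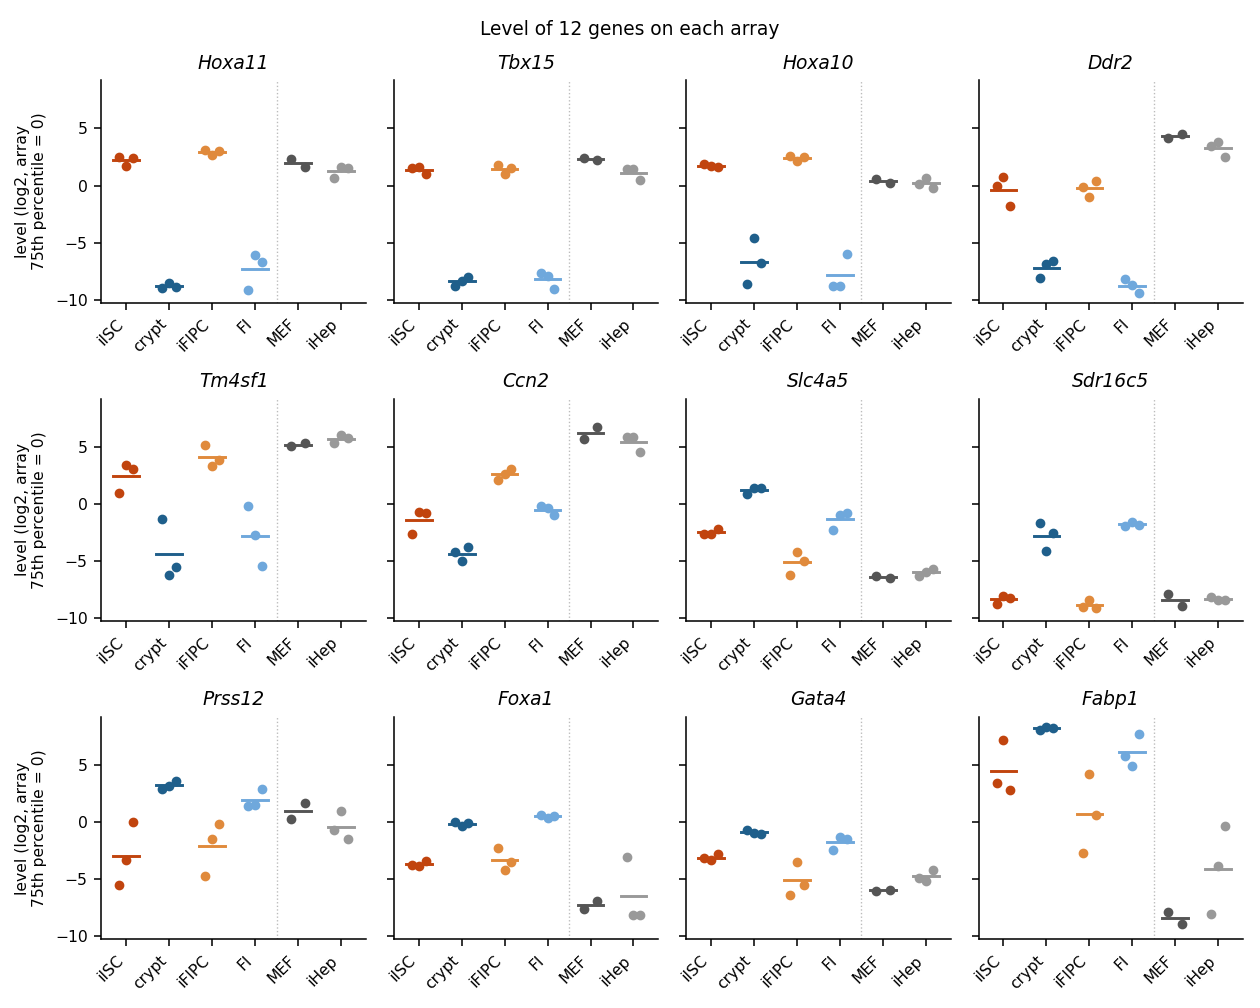
Level of 12 genes (log2, 75th percentile of the array at 0) in iISC, crypt, iFIPC and FI organoids and, right of the dotted line, in the separately scanned MEFs and iHep cells; points are arrays, with MEF 2 and 3 averaged, and bars are group means. Hoxa11, Tbx15, Hoxa10, Ddr2, Tm4sf1 and Ccn2 stood higher and Slc4a5, Sdr16c5, Prss12, Foxa1, Gata4 and Fabp1 lower in the induced group at each stage, and 1 iISC array overlaps the FI level for Fabp1.

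Genes of mesenchyme outside the regulators moved less evenly. Ddr2, a receptor for collagen, stood at 0.00, 0.74 and -1.78 in iISC organoids, against -8.10, -6.89 and -6.58 in crypt organoids. In iFIPC organoids it stood at -0.12, -1.01 and 0.40, against -8.23, -8.68 and -9.38 in FI organoids (7.68 ± 0.51, adjusted p = 2.96e-05). It was clear of overlap at both stages, and MEFs stood higher still at 4.37. Tm4sf1, a membrane protein, differed by 6.87 ± 1.03 (adjusted p = 0.0044), though crypt 1 (-1.30) and FI 1 (-0.16) lay well above the other arrays of their groups. Pmp22, a membrane protein best known from myelin, differed by 5.64 ± 0.44 (adjusted p = 8.42e-05).

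Of the 35 genes of fibroblasts and matrix on the array 19 were tested, and 5 of these were called higher and none lower. The share called higher was 26.3%, against 3.79% of all genes. Of the 5, 4 had passed the background filter through induced groups only, and of the 10 genes that passed through both origins 1 was called higher. The 5 were Twist1 (at least 4.29-fold, with no native array above background), S100a4 (3.94), Fn1 (3.58), Dcn (at least 3.11-fold) and Cdh2 (at least 1.54-fold). Dcn, a small matrix proteoglycan, was not shared: it was above background on all 3 iFIPC arrays and on no other organoid array. Twist1, S100a4, Fn1 and Dcn each had a larger difference at the fetal-type stage and passed the test of origin by stage. For S100a4, above background on all 12 arrays, the stages differed by 5.70, while Twist1, Fn1 and Dcn were at background on the crypt arrays and on at least 2 of 3 FI arrays, so that the size was not measured. The summed fibroblast markers, of which Twist1 and Dcn are 2, were higher on iFIPC arrays (-0.93 to 1.99) than on iISC arrays (-3.52 to -2.62). Their part in the result was not tested. Col1a1 was not called (2.28 ± 1.01, adjusted p = 0.152). It stood at -7.03, -7.72 and -7.31 in iISC organoids, against -8.54, -8.45 and -8.15 in crypt organoids, and none of these 6 values was near the 7.27 of MEFs. In iFIPC organoids Col1a1 was higher, at -1.17, 0.49 and -3.05, against -1.10, -7.29 and -5.92 in FI organoids. Vim, the mesenchymal intermediate filament, was not called by origin either (0.84 ± 0.49, adjusted p = 0.265). It differed by -0.37 between iISC and crypt organoids and by 2.06 between iFIPC and FI organoids (limma adjusted p = 0.684 and 0.0129).

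Of 17 tested targets of YAP and TEAD 4 were called higher and none lower (23.5% against 3.79%): Ccn2, Nt5e, Ankrd1 and Foxf2, which also stands in the list of limb regulators. Of these, 2 had passed the background filter through induced groups only. Ccn2, a matricellular growth factor, stood at -2.67, -0.72 and -0.81 in iISC organoids, against -4.24, -5.05 and -3.78 in crypt organoids. The iFIPC organoids had 2.11, 2.62 and 3.02, against -0.23, -0.33 and -0.94 in FI organoids (3.02 ± 0.36, adjusted p = 0.00131). Its arrays did not overlap within a stage, while iISC and FI levels overlapped. Of 21 tested genes around p53 and Cdkn2a 4 were called higher and none lower (19% against 3.79%). Of these 4, 1 (Trp63) had passed the background filter through induced groups only. Cdkn2a, the locus of the senescence proteins p16 and p19, stood at -6.32, -5.02 and -4.33 in iISC organoids, against -8.92, -8.51 and -8.73 in crypt organoids. It stood at -2.06, 0.16 and -1.33 in iFIPC organoids, against -5.09, -4.50 and -5.13 in FI organoids (3.66 ± 0.40, limma adjusted p = 0.000972). Cdkn2a was above background on no crypt array, so its adult-type difference is a bound, at least 2.65-fold, and 3.66 is a fitted value. Its neighbour Cdkn2b was also shared (1.45). The other 2 called, Plk2 (1.08) and Trp63 (at least 5.50-fold), were not shared.

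Of 23 tested genes known from fetal spheroids, the immature state of intestinal epithelium, 8 were called higher and 1 lower (34.8% against 3.79% of all genes higher). All 9 were shared. Of the 21 that passed the background filter through both origins 7 were called higher. Anxa8, an annexin, stood at -1.36, 0.92 and 2.49 in iISC organoids, against -2.44, -5.95 and -5.40 in crypt organoids. It stood at 4.90, 4.99 and 5.67 in iFIPC organoids, against 0.87, 1.00 and -1.79 in FI organoids (5.22 ± 0.79, adjusted p = 0.00446), so that each stage was apart while iISC and FI levels overlapped. Others were Spp1 (5.41), Il1rn (3.08), Ly6a (3.00), Anxa1 (2.97), Clu (2.87) and S100a6 (2.61). Spp1 rested on iISC 3 alone at the adult-type stage, at 0.19 against -8.54 and -7.90 on the other iISC arrays. Igf2bp3, an RNA-binding protein of fetal tissue, was the 1 lower member (-2.25 ± 0.37, adjusted p = 0.0063). Ly6a is the first of 3 neighbours among the genes tested that were all shared, Ly6a, Ly6c1 and Ly6c2.

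**Figure D4:**
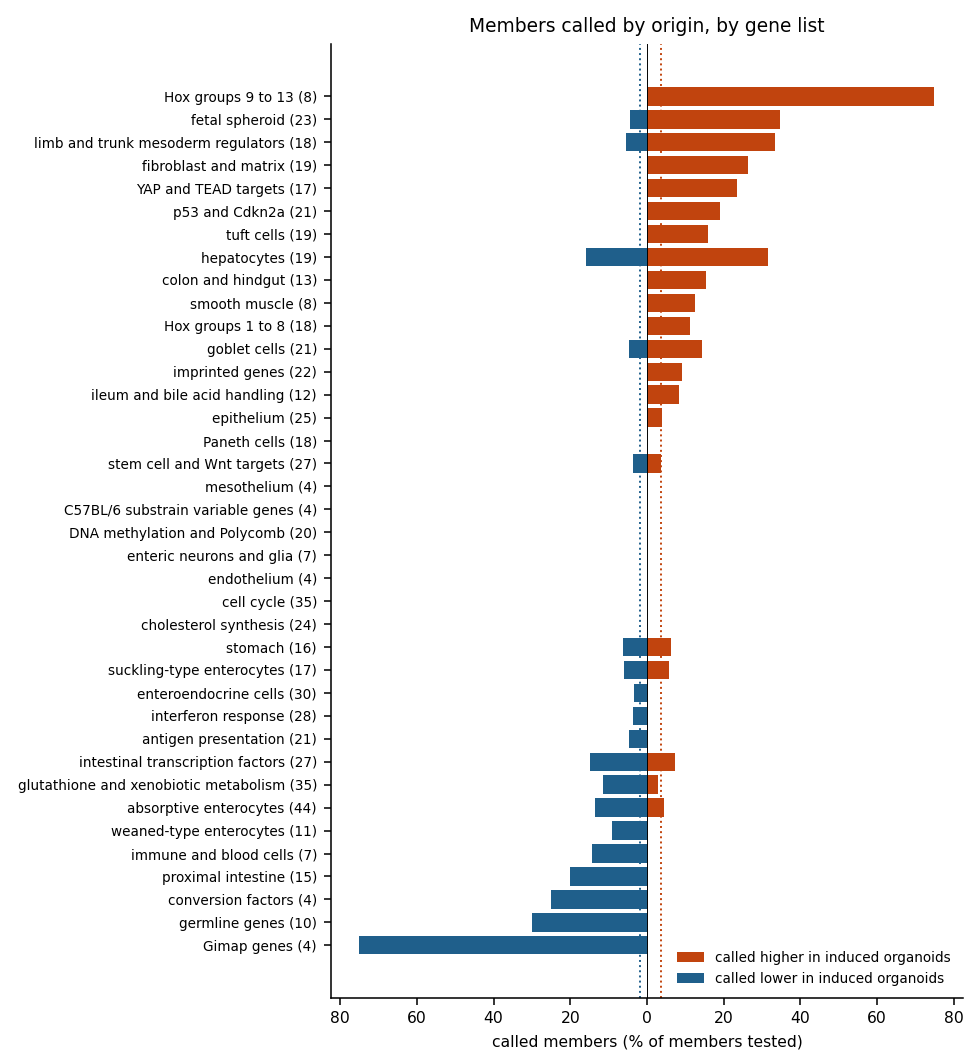
Share of the tested members of each gene list (number tested in brackets) that were called higher (red, to the right) or lower (blue, to the left) in induced organoids; dotted lines give the shares over all 14522 genes, 3.79% and 1.78%. The bars of Hox groups 9 to 13 (75% higher) and of the Gimap genes (75% lower) rest on 8 and 4 tested genes, of which 7 Hox genes passed the background filter through induced groups only and 1 Gimap gene through native groups only.

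Factors of the intestine split. No label names the genes introduced for conversion. Hnf4a, Foxa3, Gata6 and Cdx2 are the transcription factors known for turning fibroblasts into fetal intestinal progenitor cells, and of these 4 only Gata6 was called by origin. Of 27 tested intestinal transcription factors 4 were called lower (14.8% against 1.78% of all genes) and 2 higher (7.41% against 3.79%). Hnf4a differed by -0.13 ± 0.16 (adjusted p = 0.624), Foxa3 by -0.04 ± 0.17 (0.901) and Cdx2 by -0.97 ± 0.37 (0.106). These misses do not show that the levels were equal, and Cdx2 did differ between stages, with 0.14 between iISC and crypt organoids and -2.08 between iFIPC and FI organoids (adjusted p of origin by stage 0.00655). Foxa1, a forkhead factor that opens chromatin in endoderm, stood at -3.76, -3.89 and -3.37 in iISC organoids, against 0.00, -0.35 and -0.09 in crypt organoids. It stood at -2.25, -4.18 and -3.50 in iFIPC organoids, against 0.62, 0.38 and 0.57 in FI organoids (-3.68 ± 0.27, adjusted p = 6.22e-05). No induced array reached a native one, and MEFs (-7.26) stood below both. Its neighbour in the annotation, Ttc6, was above background on no induced and all 6 native arrays and was at least 3.33-fold lower (adjusted p = 7.29e-05). Foxa2, of the same family, differed by 0.00 (adjusted p = 0.993).

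The start region of Foxa1 (RefSeq, GRCm38.p6 chr12:57546062-57546361, minus strand, CpGs in capitals) is shown beside the Hox windows as that of a lower gene. It holds 26 CpGs and 1 match to TGTTTAC, the core read by forkhead factors, which 2.71% of the windows of all tested genes hold.
Foxa1: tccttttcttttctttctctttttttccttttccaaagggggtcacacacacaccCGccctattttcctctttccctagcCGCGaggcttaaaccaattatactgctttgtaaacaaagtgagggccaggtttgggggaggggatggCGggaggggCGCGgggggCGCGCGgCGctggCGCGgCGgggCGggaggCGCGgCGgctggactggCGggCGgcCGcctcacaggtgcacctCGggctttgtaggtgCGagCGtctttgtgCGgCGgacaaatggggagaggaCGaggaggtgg

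Gata4, a zinc finger factor of the duodenum and jejunum, stood at -3.19, -3.35 and -2.82 in iISC organoids, against -0.72, -0.96 and -1.01 in crypt organoids. It stood at -6.36, -3.50 and -5.48 in iFIPC organoids, against -2.45, -1.30 and -1.46 in FI organoids (-2.80 ± 0.44, adjusted p = 0.00517). All induced arrays lay below all native ones, and Gata4 was 1 of 7 genes that stayed shared under all 23 alternative settings, with Slc4a5, Cabcoco1, Hoxa9, Prl2c5, Camsap2 and Tnfrsf11b. Genes dark in 1 origin were left out by 1 of these settings, and Hoxa11, Tbx15, Ddr2, Hoxd9 and Sdr16c5 were called the same way in all 22 in which they were tested. Onecut2 differed by -3.89 ± 0.77 (adjusted p = 0.0124). Gata6 was called lower (-1.49 ± 0.22, adjusted p = 0.00424) but its probes disagreed, 2 of 3 pointing to higher levels, and with the mean of the probes the difference was 0.51. Isx, an intestine-specific homeobox gene, went the other way, with -5.63, -4.35 and -6.92 in iISC organoids, against -8.41, -8.63 and -8.85 in crypt organoids. It stood at 2.17, 3.47 and 3.55 in iFIPC organoids, against -1.12, -3.34 and -3.78 in FI organoids (4.40 ± 0.68, limma adjusted p = 0.00455). No crypt array was above background for Isx, so its adult-type difference is a bound, at least 1.99-fold, and 4.40 is a fitted value. Klf4, a factor of differentiating epithelium, was higher by 1.73 ± 0.18 (adjusted p = 0.000963) with every induced array above every native one.

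Of 15 tested markers of the proximal intestine 3 were called lower (20% against 1.78%) and none higher, and 12 were not called. The 3 were Fabp1, Onecut2 and Gata4, of which Onecut2 and Gata4 also stand among the factors. Fabp1, the fatty acid carrier of enterocytes, stood at 3.39, 7.15 and 2.85 in iISC organoids, against 8.03, 8.34 and 8.27 in crypt organoids. It stood at -2.71, 4.22 and 0.65 in iFIPC organoids, against 5.78, 4.89 and 7.74 in FI organoids (-4.58 ± 1.14, adjusted p = 0.0279). The induced arrays were uneven and lay below the native ones at each stage. Of 12 tested ileal genes 1 was called, higher (8.33% against 3.79%), namely Slc10a2, the bile acid transporter of the ileum. It stood at 2.08, 1.37 and 0.99 in iISC organoids, against -5.68, -4.87 and -4.40 in crypt organoids. In iFIPC organoids it stood at -0.66, 0.40 and 1.17, against -0.76, -6.41 and -5.76 in FI organoids (5.54 ± 0.88, adjusted p = 0.00518), where FI 1 was next to the induced arrays. Of 13 tested genes of the colon and hindgut 2 were called, both higher (15.4% against 3.79%), among them Muc1 (at least 4.14-fold), which passed the background filter through induced groups only.

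Among 44 tested genes of absorptive enterocytes 6 were called lower (13.6% against 1.78%) and 2 higher (4.55% against 3.79%). The lower ones were Fabp1, the peptidases Dpp4 (-3.76), Ace (-1.57) and Anpep (-1.43), the glucose transporter Slc2a2 (-2.36) and Amn (-1.64). Amn and Cubn encode the 2 parts of the receptor for vitamin B12 with intrinsic factor. Cubn was higher (4.30 ± 1.12, adjusted p = 0.0333), by 7.24 between iISC and crypt organoids and 1.37 between iFIPC and FI organoids. Mep1b, a metalloprotease, was the other higher one (1.19) and was not shared. Of 21 tested goblet cell genes Zg16 (3.27), Guca2a (2.11) and Capn9 (1.12) were higher (14.3% against 3.79%) and Clca3a1 (-1.34) lower (4.76% against 1.78%). Of 19 tested tuft cell genes Ptgs1 (3.10), Hpgds (3.04) and Rgs13 (1.35) were higher (15.8% against 3.79%) and none lower. Of 27 tested genes of stem cells and Wnt targets Notum, which inactivates Wnt proteins, was higher (2.33) and Tnfrsf19 was lower (-2.87), shares of 3.7% each against 3.79% higher and 1.78% lower over all genes. Lgr5, the receptor that marks crypt stem cells, was not called (-1.20 ± 0.40, adjusted p = 0.0732). Of 25 epithelial genes only Krt20 was called (1.48), with -0.02 when slide was a fixed term, and Cdh1 differed by 0.19 ± 0.08 (adjusted p = 0.15). None of 18 Paneth cell, 35 cell cycle, 24 cholesterol synthesis and 20 DNA methylation and Polycomb genes tested by limma was called by origin.

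The remaining lists held few called genes. Over all genes tested 3.79% were called higher and 1.78% lower. Among 30 tested enteroendocrine genes Sst, the somatostatin gene, was lower (-3.73), among 8 smooth muscle genes Tpm2, a tropomyosin, was higher (3.61), and among 16 stomach genes the proton pump subunit Atp4a was lower (-1.59) and Muc1 higher. The log2 summed signal of stomach markers lay at 5.17 to 8.19 in iFIPC organoids and at most at -1.20 in the other organoid groups, and the part of such cells in the result was not tested. Of 28 interferon response genes Ifit2 (-1.04), of 21 antigen presentation genes H2-T3 (-3.20), of 7 immune and blood cell genes Csf1r (-1.15) and of 11 genes of weaned-type enterocytes Arg2 (-2.18) was the 1 called, each lower. Csf1r had passed the background filter through native groups only. Of 17 genes of suckling-type enterocytes Cubn was higher and Amn lower. No gene was called among 4 of endothelium, 7 of enteric neurons and glia, 4 of mesothelium and 4 that vary between C57BL/6 substrains, and the 6 X and Y dosage genes were not tested.

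Several further genes were decreased at both stages. Sdr16c5, a retinol dehydrogenase, was above background on no induced and all 6 native arrays and was at least 16.5-fold lower (adjusted p = 2.72e-05). It stands beside Sdr16c6, which was shared too (-2.33). Prss12, a secreted serine protease, stood at -5.49, -3.34 and -0.01 in iISC organoids, against 2.94, 3.16 and 3.58 in crypt organoids. It stood at -4.74, -1.50 and -0.16 in iFIPC organoids, against 1.43, 1.52 and 2.92 in FI organoids (-5.13 ± 0.99, adjusted p = 0.0111). The induced arrays were spread over more than the native ones and stayed below them. Slc4a5, a bicarbonate transporter, fell by 3.74 ± 0.34 (adjusted p = 0.000296), Gckr, the regulator of glucokinase, by 3.63 ± 0.68 (adjusted p = 0.0102), and Fras1, a protein of the basement membrane, by 3.67 ± 0.64 (adjusted p = 0.00757). Of 10 tested germline genes 3 were called lower (30.0% against 1.78%): Tdrd1 (-3.04) and Ddx4 (at least 3.37-fold), both of the germ cell RNA pathway, were shared and Dppa5a (-1.41) was not. Ddx4 had passed the background filter through native groups only. Of 4 tested Gimap genes, GTPases of lymphocytes that sit in 1 cluster, Gimap5, Gimap1 (-2.82) and Gimap9 (-2.01) were lower. The share called lower was 75%, against 1.78% of all genes. Gimap5 was above background on no induced array and all 3 crypt arrays, and was at least 7.55-fold lower by origin.

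Liver-type genes split. Of 19 tested 6 were higher (31.6% against 3.79%) and 3 lower (15.8% against 1.78%). The acute-phase genes Saa2 (6.63), Saa3 (3.80) and Saa1 (2.91), neighbours among the genes tested, were higher with Trf (2.30), C3 (2.08) and Ttr (1.46). Lower were Afp (-4.25 ± 0.74, limma adjusted p = 0.00771), G6pc (-1.91) and Apoa2 (-1.78). In Saa2 the array FI 1 stood at 0.37 and the other 2 FI arrays at -6.45 and -6.49. Of 22 tested imprinted genes Mest was shared (at least 2.18-fold, limma adjusted p = 0.000972) and Cdkn1c was called (1.00) without being shared, and H19 (0.26, adjusted p = 0.753) and Igf2 (0.28, 0.893) were not called. Of the 22, 9.09% were called higher, against 3.79% of all genes, and none lower. Mest had passed the background filter through induced groups only. Of 35 tested genes of glutathione and xenobiotic metabolism Sult1a1 was higher (2.28), and Gstm6, Ugt2b5, Gstm4 and Gstm2 were lower, with differences of -1.85 (Gstm6), -1.67 (Ugt2b5), -1.45 (Gstm4) and -1.20 (Gstm2). These were shares of 2.86% higher and 11.4% lower, against 3.79% and 1.78% of all genes. Prl2c3 (6.78) and Prl2c5 (6.71), placental lactogen relatives whose near-identical sequences a probe may not separate, were among the 12 increases named as largest, along with Aldh1a3 (5.87), which makes retinoic acid, and Tmigd1 (6.63).

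Some shared genes stood side by side among the genes tested, in the order of the RefSeq annotation. Untested genes can lie between such neighbours, as Hoxd10, Hoxd11 and Hoxd12 do between Hoxd9 and Hoxd13. Of the 385 higher genes 78 (20.3%) had an immediate neighbour that was also shared and higher, while 5.10% of all genes placed had such a neighbour. Of the 158 lower genes 23 (14.6%) had one, against 2.14% of all. Besides HoxA, runs of 3 or more higher genes were Gml, Gml2, Ly6m and Ly6e, then Prl2c3, Prl2c5, Gpr137b and Nid1, then Rdh1, Rdh9 and Rdh16, and the Saa, Ly6, Dclk2 and Hpgds runs. Tfpi2, Gngt1 and Gng11 were the 1 lower run of 3. Members of such runs can share sequence, in which case their probes are not independent.

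The levels in MEFs and iHep cells are given as a description: they had not been used to choose the genes, but the induced and native levels they are set beside had. For the 384 higher genes with a MEF value the median level was -2.38 in induced organoids, against -5.06 in native organoids, and it was -0.89 in MEFs. For the 158 lower genes the median was -4.16 in induced organoids, against -1.80 in native organoids, and it was -5.55 in MEFs. iHep cells had medians of -0.39 and -5.51 in the 2 sets. Of the higher genes 50 (13%) were above background on no MEF array, against 5.94% of all genes with a MEF value. Among the 50 were Tmigd1 (-7.57) and Slc10a2 (-8.20). In 231 (60.2%) of the 384 higher genes MEFs stood at or above the mean of the induced organoids, against 46.8% of all genes with a MEF value. They stood below it for Hoxa10 (0.38 against 2.07), Hoxa9 (-0.52 against 1.29) and Prl2c5 (-3.77 against 3.58), among others. Over all genes with a MEF value the medians were 0.21 in induced organoids, 0.21 in native organoids, 0.05 in MEFs and 0.13 in iHep cells. Scanning and extraction of the fibroblast and iHep arrays had been done apart from those of the organoids, so that set and cell type cannot be told apart in these levels.

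**Figure D5:**
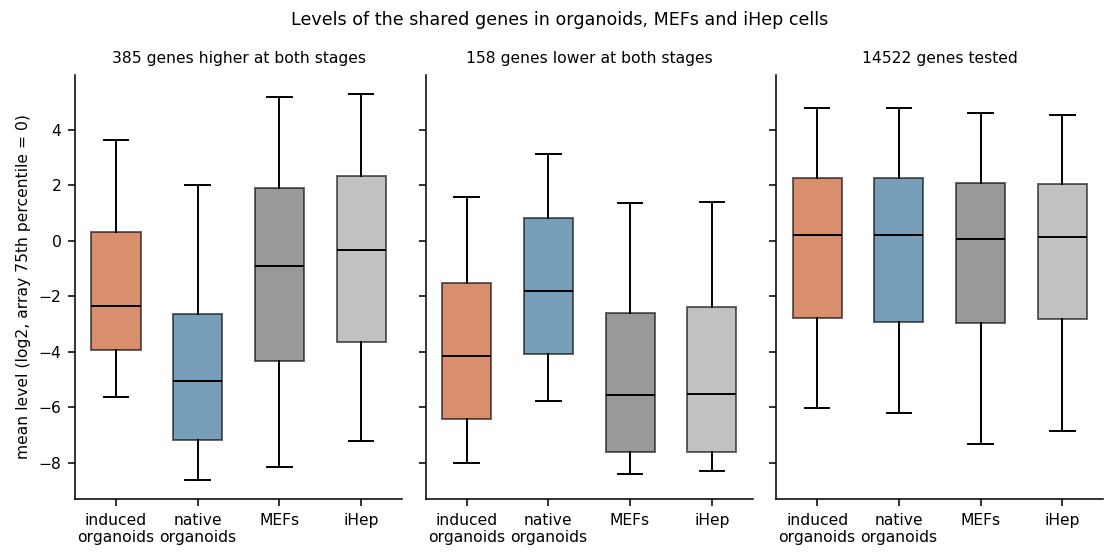
Mean level (log2, 75th percentile of the array at 0) of the 385 shared higher genes, the 158 shared lower genes and all 14522 genes tested, in induced organoids, native organoids, MEFs and iHep cells; boxes give the median and quartiles over genes and whiskers the 5th and 95th percentiles. In the higher set the median of MEFs (-0.89) lies above those of induced (-2.38) and native organoids (-5.06), and in the lower set the median of MEFs (-5.55) lies below both; induced and native levels were used to choose the genes.

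The size of the shared differences was not the same at the 2 stages. At the adult-type stage alone 456 genes (3.14%) were called, 285 higher (1.96%) and 171 lower (1.18%), and at the fetal-type stage 1536 (10.6%), 811 higher (5.58%) and 725 lower (4.99%). The difference of 236 of the 385 higher genes and 85 of the 158 lower genes was larger at the fetal-type stage. The difference between stages itself passed the test for 756 genes (5.21%), positive in 1.98% and negative in 3.22% of genes, of which 31 were among the 543. Stage was called within the signature too: 129 of the 385 higher genes were called higher and 3 lower in the fetal-type cultures, and 47 of the 158 lower genes were called lower and 2 higher there. In all, stage was called for 181 of the 543 shared genes and for 1032 of the 14522 genes tested.

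The genes that kept their call with slide as a fixed term are named here after their values were seen. The 13 higher ones were Hoxa11, Tbx15, Ddr2, Prl2c3, Prl2c5, Hoxd9, Hoxa9, Zfhx4, Vgll3, Camsap2, Tnfrsf11b, Kctd17 and Pcdhb17. The 9 lower ones included Sdr16c5, Slc4a5, Gckr, Gata4, Cabcoco1, Ugt1a9, Ppara and Tmem252. With that term the limma adjusted p was 0.00843 for Hoxa11 and 0.0013 for Tbx15. It was 0.0411 for Zfhx4, a zinc finger homeobox gene that was above background on all induced and no native arrays and at least 7.07-fold higher without the term. Vgll3, a cofactor of TEAD factors, differed by 5.01 ± 0.71 with the term (0.0411) and Ppara, the receptor that drives fatty acid oxidation, by -3.32 ± 0.50 (0.0486). Xist and the Y-linked Ddx3y stood at 4.16 and -8.67 on iISC 1, against -7.94 and 0.72 on iISC 2. The arrays of the iFIPC, crypt and FI groups split in the same manner, so each group held more than 1 source of cells. Nothing in the labels says that all arrays of a group came from separate cultures, so the p-values measure the spread between the arrays.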

How the data were processed

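Gene expression was measured on Agilent one-colour arrays. Per the file headers, the deposited intensity values came from Agilent Feature Extraction (9.5.1.1 for the MEF and iHep arrays, a later release for the organoid arrays), which had subtracted background and removed spatial trends. The deposited flags for spots well above background, saturated or outlying, set by the same software per the file headers, served as filters. The authors' series matrix holds intensity values with a median of 59.32 in every column, and served as an alternative. Here the processed signal was taken to log2 and each array's 75th percentile (929.7 to 1169.6) was subtracted. Between 56.14% and 67.09% of probes were well above background, no gene probe was saturated, and 62 to 107 outlier spots were left out per array. The number of arrays limits the precision.

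Probes were named through RefSeq, 24991 by accession, 5960 by symbol and 1774 by synonym, and 8449 stayed unnamed. Each gene was represented by its probe of highest mean level, and 14522 of 19731 named genes were well above background on all arrays of at least 1 of 4 groups and were tested. limma (3.58.1, in R 4.3.3) fitted origin plus stage, and the stagewise and origin by stage contrasts came from a fit with 1 mean per group. A call needed a log2 difference of at least 1 and a Benjamini-Hochberg adjusted p below 0.05. Where the dim group was well above background on no array, the fold is given as "at least", from the bright group's mean and, per array of the dim group, the higher of the probe's own signal and the lowest signal among probes well above background. MEF 2 and 3 had a robust spread of log2 differences of 0.073, against at least 0.197 in other pairs, and were averaged. The code was tested on simulated data.

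Named genes were the 12 highest and 12 lowest shared genes by the smaller stage difference with arrays apart at each stage, up to 4 called members of each of 39 lists, a set of anchors, and the 4 largest origin by stage differences each way. Other genes appear as members of a described list, a run or a count. Some genes that the rule selects are not reported here. Members and lists were chosen with earlier results of these data known. Alternatives changed background, scaling, filter, probe choice, model, slide, replicate number and each array in turn. Replicate numbers do not pair arrays: same-numbered arrays of different groups had correlations of deviations from -0.312 to 0.305, over 0.1 in 4 of 18 pairs.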

Additional observations from a re-analysis of the deposited data

Results flagged for a closer look

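The difference by origin was not of one size at both stages for 756 genes, by the origin by stage term of limma (adjusted p under 0.05 and at least 1 in log2). Values below are the difference between iFIPC and FI organoids minus that between iISC and crypt organoids. S100a4 differed more at the fetal-type stage by 5.70 and the stomach gene Tff1 by 10.53, both above background on all 12 arrays. For the following genes some groups were at background, so the fitted values show that the test was passed and are no measured sizes. They were 4.45 for Twist1, 5.05 for Foxf2, 4.46 for Muc1, 7.02 for Trp63, 5.81 for Dcn and 8.23 for Adamdec1, a secreted metalloprotease, all 6 above background on no native array. Between iFIPC and FI organoids the bounds were at least 19.9-fold for Twist1, 24.9-fold for Foxf2, 19.6-fold for Muc1, 58.9-fold for Trp63, 24.3-fold for Dcn and 84.8-fold for Adamdec1. Fn1 (5.06) was above background on the 3 iFIPC arrays and 1 FI array, and the stomach gene Gkn2 (12.57) on the 3 iFIPC arrays, 1 crypt array and 1 FI array. Neither stomach gene was called by origin over both stages. Hoxa9 had a larger difference at the fetal-type stage by 1.05, on top of a difference that was present at both.

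Pitx1 had 9.79, and it was above background on 1 iISC array and on all iFIPC, crypt and FI arrays. Gimap5 (6.29), Gimap1 (3.60) and Csf1r (1.72) had positive values, their decrease lying mostly between iISC and crypt organoids. Gimap5 was above background on no induced array and Csf1r on no iISC array, so the values of both are fitted ones. Negative values were found for Dppa5a (-1.75), Cubn (-5.87), Dlk1 (-6.09), Cdx2 (-2.23), Bex4 (-9.98), Emid1 (-6.35), Itm2a (-6.35) and Klhl13 (-6.23). For Dlk1, Bex4, Emid1, Itm2a and Klhl13 the mean difference was positive between iISC and crypt organoids and negative between iFIPC and FI organoids. Groups of 3 arrays are too small for a test of single outlying arrays.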

How the results depend on the processing

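Counts of genes called by origin and of shared genes moved most with slide, which is largely tied to origin. As a fixed term it left 37 genes by origin, 36 shared, 10 called at each stage separately, 28 between iISC and crypt, 114 between iFIPC and FI and 57 for origin by stage, and as a random block 373, 304 and, for origin by stage, 499. Normexp background correction gave 472 by origin, 256 shared, 84 at each stage separately and 297 between iISC and crypt. Asking for signal above background on all arrays gave 468, 271, 78 and 290, and 1010 between iFIPC and FI, with fewer genes tested. Leaving out 1 array at a time gave 466 to 896 by origin (466 without FI 2, 500 without FI 3) and 376 to 622 shared. It gave 56 to 182 at each stage separately (62 without crypt 2, 56 without crypt 3, 83 without FI 2) and 154 to 639 between iISC and crypt (277 without iISC 3, 154 without crypt 2, 158 without crypt 3). It gave 955 to 1629 between iFIPC and FI (955 without FI 2) and 305 to 1583 for origin by stage (1583 without crypt 1, 321 and 305 without crypt 2 and crypt 3, 442 without FI 1, 360 without FI 2). With the replicate number as a block, 583 genes were called by origin and 442 were shared, the numbers not being a known pairing. Signs were compared only where a gene was called in the main fit or in the alternative. There 2 named genes reversed, Gata6 with the mean of its probes (0.51) and Krt20 with slide as a fixed term (-0.022). Genes not called could change sign as well, such as Lgr5 (-1.20, and 0.15 with slide as a fixed term). Over named genes and settings 2138 values kept their side of the threshold, and their direction where called, 403 fell short of it and 8 passed it newly. The cause of these shifts was not tested, and no setting moved the median of all genes by more than 0.1. Probes near background limit what can be said of fold sizes.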
